A study of Mus musculus with 4 samples.

Results

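The genes described here encode collagen chains. They were all rows of the count table whose mouse symbol has the form Col, a number, the letter a and a number, which gave 42 of 29247 genes. The macrophages had been sorted by flow cytometry from the liver of C57BL6J mice aged 8 weeks. The treated group was 3 libraries of Cxcr4+ macrophages taken 72 h after 300 mg/kg acetaminophen (APAP) in saline by intraperitoneal injection, and the comparison group was 1 library of control macrophages. APAP is a painkiller that injures hepatocytes at high doses. The labels give the Cxcr4+ sort for the treated group and no gate for the control, so the drug and the sort cannot be told apart. Whether the treated libraries are from different mice is not stated. The p-values therefore reflect only the spread among those 3 libraries, which may be technical, and a test against 1 control assumes the same spread for it. The rule matched 44 symbols in the reference annotation, and no row of the count table was matched to Col9a1 or Col28a1.

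Collagens are proteins of the extracellular matrix in which 3 chains wind around each other in a triple helix. Fibrillar collagens such as types I and III form the cables that accumulate in scars, type IV forms the mesh of basement membranes, and other types link, anchor or span membranes. In the liver, types I and III are known mainly as products of activated hepatic stellate cells and portal fibroblasts, and macrophages are better known for engulfing and degrading matrix than for making it. Macrophage markers were present in every library: all 8 listed genes had reads, and their summed level was 20348 to 25794 CPM (counts scaled by the TMM-adjusted library size) in the treated libraries and 43993 CPM in the control. In the test described below, 6 of these 8 markers were called lower and 0 higher, beside 18.9% and 25.4% of all genes tested. Total counts were 48282283, 52043418 and 56702837 in the treated libraries and 49950909 in the control. Together the 42 chains took 0.0162% to 0.0171% of all counts after APAP and 0.00969% in the control. Every collagen level below is thus that of a minor transcript.

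Of the 42 chains, 4 had no counts in any library, 9 had at most 12 counts in any library and were left out by the count filter, and 29 were tested. Among the 29, the quasi-likelihood test called 11 higher and 1 lower in APAP Cxcr4+ macrophages at an adjusted p of 0.05, against 25.4% called higher and 18.9% called lower over all 18715 genes tested. The control lay below all 3 treated libraries for 22 of the 29 chains and above them for 4, where 45.7% and 39.2% of all genes did so. The median log2 fold change was 0.78 over the 29 chains and 0.08 over all genes tested, and 0.64 over the chains with those at 0 in the control set to their lower bound. These counts describe the chains that passed a filter, not the whole family: 7 of the 29 were under the filter's level in the control and passed through the treated libraries, and 8 of the 11 called higher were at or above that level in the control.

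Among chains with reads in the control, those of fibrillar collagens I and III had the largest rises. Col1a1 and Col1a2 encode the chains of type I collagen, the main protein of scar tissue. Col1a1 stood at 8.16, 7.0 and 6.91 CPM in the treated libraries and at 0.801 CPM in the control. All 3 treated libraries were above the control, and they differed little among themselves. The rise was 3.19 on the log2 scale (SE 0.25, adjusted p = 0.00112 by edgeR's quasi-likelihood test), or 9.16-fold. Col1a2 was measured at 7.54, 6.76 and 6.18 CPM after APAP and at 1.38 CPM in the control, with no overlap between the groups. Its log2 fold change was 2.30 (SE 0.24, adjusted p = 0.00184). Per kilobase of transcript, the Col1a1 level was 0.976, 0.934 and 1.01 times that of Col1a2 in the treated libraries and 0.524 times in the control. This difference in ratio was not tested, and the control ratio rests on 36 and 62 counts.

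Col3a1, the single chain of type III collagen, which forms thin fibrils together with type I, had a higher level per kilobase than Col1a1 and Col1a2 in every library. Its levels were 21.8, 17.7 and 14.6 CPM in the treated libraries, against 2.76 CPM in the control. The rise was 2.71 on the log2 scale (SE 0.29, adjusted p = 0.00189). The first treated library was the highest and the third the lowest, and even the third was well above the control. The exons of Col3a1 and Col7a1 each hold an annotated miRNA gene on the same strand, over 141 and 36 bases. Per kilobase, Col3a1 ranked 2, 3 and 4 among all chains in the treated libraries and 9 in the control. Calls for Col1a1, Col1a2 and Col3a1 held under all 12 alternatives each, with adjusted p-values of at most 0.0151. The control values rest on few reads: 36 counts for Col1a1, 62 for Col1a2 and 124 for Col3a1. Low counts were more often even than odd, with 64.7% to 65.4% even among genes at 1 to 19 counts in the treated libraries and 73.1% in the control, so exact Poisson intervals were taken on each count divided by 2 and scaled back. The 95% interval was then 21.3 to 56.9 counts for Col1a1, 42.1 to 88.0 for Col1a2 and 95.1 to 159 for Col3a1, covering counting error only.

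Promoter windows from RefSeq (build GRCm38.p6, not the build of the counts) matched 35 chains in 38 windows, 3 of them of Col9a1 and Col28a1. The stretch just upstream of the start is shown for Col3a1 and Col7a1, whose calls held under every alternative run and whose windows overlap no annotated exon. The windows of Col15a1, Col6a3 and Col6a5, also called higher, overlap no exon either and are not shown. Capitals mark matches on either strand to TATAAA (the TATA box), to the CCAAT box and to GGGCGG (a GC box), and a base may belong to more than 1 match. The Col3a1 window is chr1:45311288-45311537 on the plus strand and the Col7a1 window is chr9:108953336-108953585 on the plus strand.
Col3a1: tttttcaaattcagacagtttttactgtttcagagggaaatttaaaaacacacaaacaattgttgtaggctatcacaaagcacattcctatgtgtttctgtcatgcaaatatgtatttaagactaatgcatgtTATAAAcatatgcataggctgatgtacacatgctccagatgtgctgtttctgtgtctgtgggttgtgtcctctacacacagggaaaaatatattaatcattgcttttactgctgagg
Col7a1: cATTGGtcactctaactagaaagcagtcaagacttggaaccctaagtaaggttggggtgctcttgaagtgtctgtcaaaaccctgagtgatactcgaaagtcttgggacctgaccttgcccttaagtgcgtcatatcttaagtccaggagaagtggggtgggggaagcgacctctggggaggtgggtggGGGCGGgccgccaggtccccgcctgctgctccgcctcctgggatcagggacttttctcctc
The Col3a1 window held 1 TATAAA match and 0 matches to each of the other motifs, and the Col7a1 window held 1 CCAAT match on the reverse strand and 1 GGGCGG match. Col15a1 and Col6a3 held 0 matches to any of the motifs, and Col6a5 held 1 GGGCGG match. Over 32851 windows of 250 bases, TATAAA was present in 12.4%, CCAAT in 33.8% and GGGCGG in 32.7%. Of the 9 windows of chains called higher, TATAAA was in 2, CCAAT in 5 and GGGCGG in 4, and of all 38 windows of the family in 5, 13 and 22. A match describes these letters and not a working site.

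**Figure D1:**
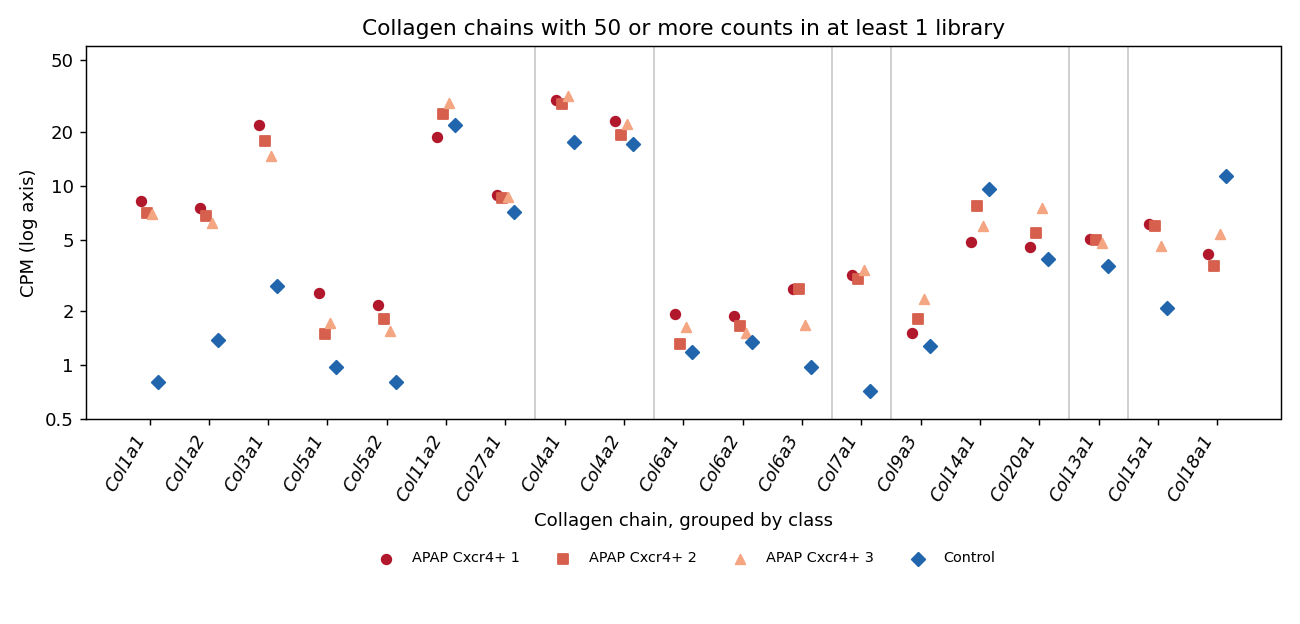
Level of each collagen chain that reached 50 counts in a library, in CPM on a log axis, with 1 symbol per library and vertical lines between structural classes. Col1a1, Col1a2 and Col3a1 show the widest gap between the 3 treated libraries and the control, Col7a1 and Col15a1 a smaller one, and Col18a1 lies lower in the treated libraries than in the control.

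Of the other fibrillar chains, Col5a2 was called. Type V collagen is a minor component inside type I fibrils and sets their diameter. Col5a2 stood at 2.17, 1.81 and 1.55 CPM after APAP and at 0.801 CPM without it, and its rise of 1.2 on the log2 scale passed (SE 0.35, adjusted p = 0.0382). That call was lost under 5 of 11 alternatives, among them without the first or the second treated library (adjusted p = 0.0566 and 0.0931). Col5a1 was at 2.51, 1.49 and 1.72 CPM against 0.979 CPM, also without overlap, but did not pass (log2 fold change 0.96, SE 0.41, adjusted p = 0.106). Col5a3, with at most 37 counts in any library, was at 0.223 to 0.512 CPM after APAP and 0.823 CPM in the control and did not pass (-1.16, SE 0.56, adjusted p = 0.137).

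Col11a2, a chain of the type XI collagen of cartilage, ranked first per kilobase in the control and overlapped between the groups. It stood at 18.6, 25.04 and 28.8 CPM in the treated libraries and at 21.7 CPM in the control (log2 fold change 0.15, SE 0.24, adjusted p = 0.624). Col27a1, a fibrillar collagen of developing cartilage, was at 8.86, 8.51 and 8.67 CPM against 7.08 CPM and did not pass (0.29, SE 0.16, adjusted p = 0.171). The sign of both turned after a correction for transcript length and GC content, to -0.04 for Col11a2 and -0.01 for Col27a1. Of 11 fibrillar chains, 8 were tested, 4 were called higher and 0 lower, beside 25.4% and 18.9% of all genes tested. The other 3 fibrillar chains had at most 1 count in any library.

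Type IV collagen builds the sheet of basement membranes, and its main chains are encoded by the neighbouring genes Col4a1 and Col4a2, whose RefSeq starts lie 21 bases apart on opposite strands. Col4a1 ranked first per kilobase in all 3 treated libraries, at 29.9, 28.3 and 31.6 CPM against 17.5 CPM in the control. The treated libraries were close together and above the control, and the log2 fold change was 0.78 (SE 0.12, adjusted p = 0.00518). Its call did not hold against a threshold of a 2-fold change (adjusted p = 1 with glmTreat). Col4a2 stood at 22.8, 19.2 and 22.1 CPM and at 17.1 CPM in the control, all treated libraries higher, and did not pass (0.32, SE 0.15, adjusted p = 0.120). Per kilobase the Col4a1 level was 1.28, 1.44 and 1.39 times that of Col4a2 after APAP and 0.998 times in the control. This shift in ratio was not tested, and exons of both genes overlap by 22 bases on opposite strands in the GRCm38 annotation, where unstranded reads could not be assigned.

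Col4a3 and Col4a4, which make the type IV network of kidney and lung, had at most 13 and 24 counts in any library and did not pass (adjusted p = 0.607 and 0.173). Col4a5, a partner of theirs on the X chromosome, had 21, 12 and 30 counts in the treated libraries and 0 in the control, and was called higher (adjusted p = 0.0187). For a control count of 0 the 95% interval, on counts divided by 2 as above, reaches 7.38 counts. The mean treated level of Col4a5 was 2.34 times that limit, and 1.95 times without the third treated library. The limit covers counting error of the control only, not the spread of the treated libraries. Its neighbour Col4a6 had 2, 0 and 12 counts after APAP and 0 in the control, and was not tested. Of the 5 type IV chains tested, 2 were called higher and 0 lower, beside 25.4% and 18.9% of all genes tested. Col4a3, Col4a4 and Col4a5 had 4, 6 and 0 control counts, under the filter's level, and were tested through the treated libraries. Col4a5 could not have been called lower, so this count is not comparable to those shares.

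A count of 0 in the control was common among low genes. In that library 10454 of the 29247 genes had no counts, against 5367 to 5871 in the treated libraries. Of the genes tested, 1520 stood at 0 in the control, and 942 of these were called higher. A gene at 0 in the control could not be called lower. Besides Col4a5, the chains at 0 in the control that were tested were Col6a5, Col17a1 and Col12a1. Col6a5, a type VI chain known from skin, had 18, 12 and 30 counts in the treated libraries (adjusted p = 0.0197). Its mean was 2.22 times the limit for a control count of 0, and 1.77 times without the third treated library. Col17a1, a membrane-spanning chain that holds epithelial cells to their basement membrane, had 7, 10 and 26 counts (adjusted p = 0.0479). Its mean was 1.56 times that limit. Without the third treated library that ratio was 0.991, so no lower bound above the control could be given. The call of Col17a1 was lost without the second treated library (adjusted p = 0.0810), with limma-voom (0.0626), with halved counts (0.0689) and after the length and GC correction (0.0556); glmTreat gave 0.16. Col12a1, which decorates the surface of type I fibrils, had 10, 6 and 6 counts and did not pass (adjusted p = 0.0648).

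Type VI collagen forms beaded filaments around cells from the products of Col6a1, Col6a2 and Col6a3. Col6a3 was called higher, at 2.67, 2.66 and 1.67 CPM against 0.979 CPM in the control (log2 fold change 1.25, SE 0.40, adjusted p = 0.0484). The call was lost under 6 of 11 alternatives, among them without the first or the second treated library (adjusted p = 0.0598 and 0.12). Col6a1 stood at 1.93, 1.30 and 1.62 CPM against 1.18 CPM and Col6a2 at 1.87, 1.64 and 1.5 CPM against 1.34 CPM. Neither passed (log2 fold change 0.45, adjusted p = 0.324, and 0.32, adjusted p = 0.414), although every treated library was above the control for both. Col6a6 had 0, 10 and 10 counts after APAP and 0 in the control, and was not tested. Of the 4 type VI chains tested, Col6a3 and Col6a5 were called higher, beside 25.4% of all genes tested. Col6a5, at 0 in the control, was tested through the treated libraries and could not have been called lower.

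Col7a1, the chain of the anchoring fibrils that fasten epithelia to the tissue below, had the highest fold change of the non-fibrillar chains with reads in the control. Its level was 3.18, 3.0 and 3.40 CPM after APAP and 0.712 CPM in the control, and the treated libraries lay close to each other. The log2 fold change was 2.16 (SE 0.28, adjusted p = 0.00319), and the call held under all 11 alternatives, with values from 1.71 after the length and GC correction to 2.20 without the second treated library.

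Types XV and XVIII are basement membrane collagens that also carry sugar chains, and their genes went opposite ways. Col15a1 was at 6.07, 5.94 and 4.62 CPM in the treated libraries and at 2.07 CPM in the control, and rose by 1.42 on the log2 scale (SE 0.26, adjusted p = 0.00892). Col18a1, the source of endostatin, was at 4.16, 3.56 and 5.37 CPM against 11.3 CPM and was the single chain called lower (log2 fold change -1.37, SE 0.25, adjusted p = 0.00822). In both cases the groups did not overlap, and both calls held under every alternative but the glmTreat test against a 2-fold change (adjusted p = 0.16 for Col15a1 and 0.197 for Col18a1). Hepatocytes are known to make type XVIII collagen. The 8 hepatocyte markers listed summed to 250 to 415 CPM in the treated libraries and to 853 CPM in the control. None was at 0 and 7 were called lower, beside 18.9% of all genes tested. The part of hepatocytes in the Col18a1 result was not tested.

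None of the 5 fibril-associated chains tested was called, beside 44.3% of all genes tested called in either direction. Col14a1, which links fibrils to the proteoglycan decorin, was at 4.88, 7.69 and 5.97 CPM after APAP and at 9.57 CPM in the control, lower in every treated library but short of the threshold (-0.63, SE 0.27, adjusted p = 0.102). Col20a1 was at 4.56, 5.45 and 7.49 CPM against 3.87 CPM (0.59, SE 0.32, adjusted p = 0.176), and passed without the first treated library (0.74, adjusted p = 0.0486). Reads of Col20a1 are uncertain because 79 exonic bases are shared on the same strand with another annotated transcript. Col9a3, of the type IX collagen of cartilage, was at 1.51, 1.81 and 2.34 CPM against 1.27 CPM (0.57, SE 0.36, adjusted p = 0.232). Col16a1, with at most 20 counts, overlapped between the groups (-0.22, adjusted p = 0.785).

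Membrane-spanning Col13a1 was at 5.01, 4.97 and 4.79 CPM in the treated libraries and at 3.58 CPM in the control, higher in all 3 but not called (0.46, SE 0.19, adjusted p = 0.101). The related Col23a1, with at most 27 counts, was not called either (1.14, SE 0.57, adjusted p = 0.152). Col8a2, one of the short network chains of vessel walls and the cornea, had 0, 4 and 2 counts after APAP and 10 in the control (adjusted p = 0.142).

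**Figure D2:**
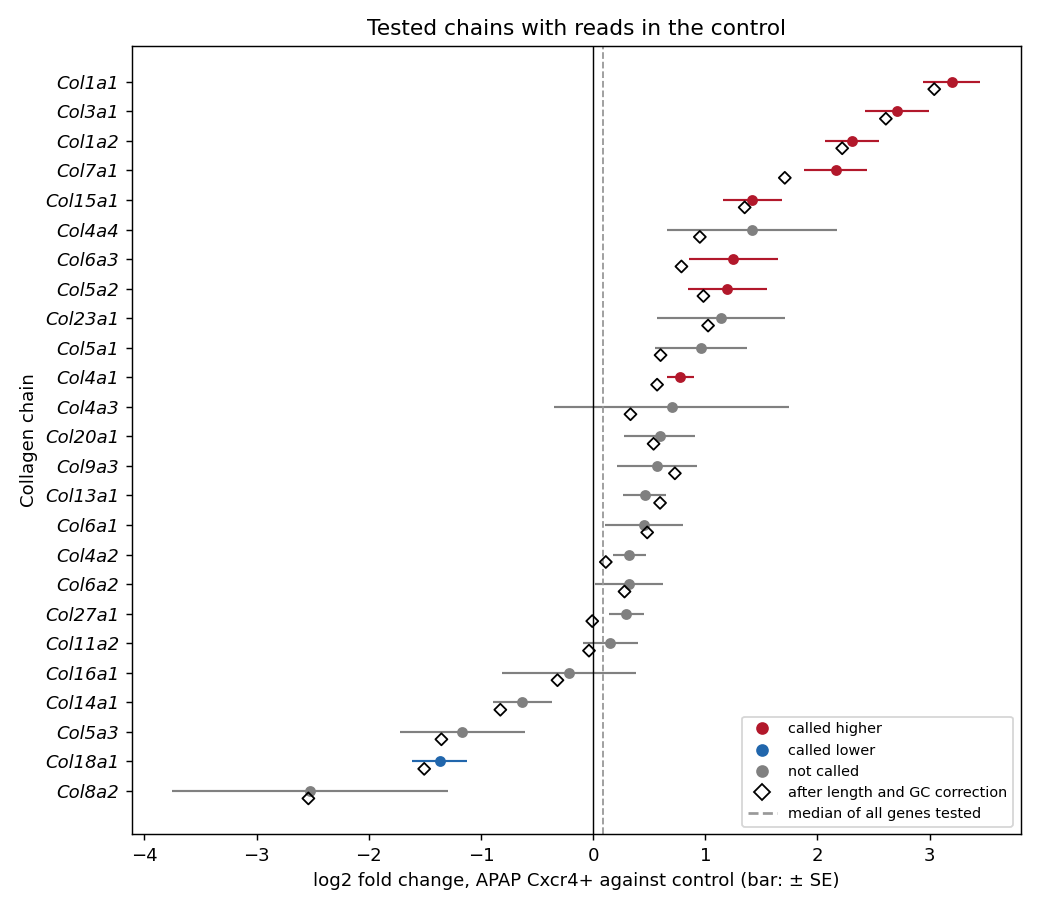
Log2 fold change of the 25 tested chains with reads in the control, with bars of ± SE and colour by call; open diamonds give the value after a correction for the trend over transcript length and GC content. Col1a1, Col3a1, Col1a2 and Col7a1 lie farthest to the right and remain there after the correction, and Col18a1 is the single chain called lower.

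The make-up of the collagen counts differed between the groups. Col1a1, Col1a2 and Col3a1 together supplied 23.2%, 20.1% and 16.8% of all collagen counts in the treated libraries and 4.59% in the control. The share of Col4a1 and Col4a2 was 30.4% to 32.7% after APAP and 32.1% in the control, so the control fell within the treated range. Col14a1 and Col18a1 supplied 19.4% in the control and 5.61%, 7.18% and 6.88% in the treated libraries. Summed over all 42 chains, the level was 161, 157 and 165 CPM after APAP and 108 CPM in the control. Col1a1, Col1a2 and Col3a1 made up 27.7 to 37.5 CPM of this in the treated libraries and 4.94 CPM in the control.

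**Figure D3:**
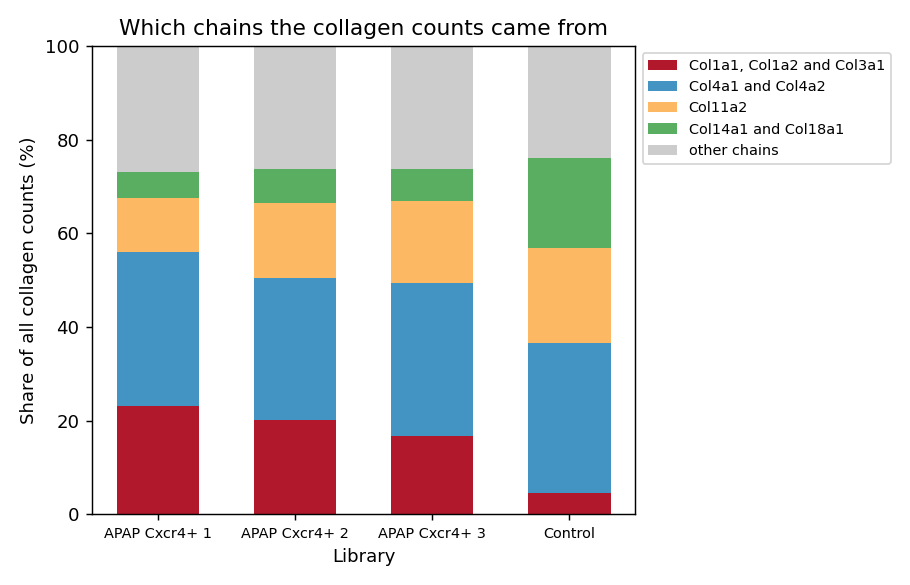
Share of all collagen counts, in percent, taken by groups of chains in each library, stacked to the full total. Red, for Col1a1, Col1a2 and Col3a1, covers 16.8% to 23.2% of the 3 treated bars and 4.59% of the control bar, and green, for Col14a1 and Col18a1, covers 5.61% to 7.18% and 19.4%.

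Among the 14 stellate cell and fibroblast markers other than collagens, all had reads in every library. Of these markers 6 were called lower and 1 higher, beside 18.9% and 25.4% of all genes tested. The summed level of the 14 markers was 28.2 to 36.7 CPM after APAP and 63.1 CPM in the control. Their part in the collagen result was not tested. Lrat, the enzyme that stores vitamin A in quiescent stellate cells, fell by 1.64 on the log2 scale (SE 0.18, adjusted p = 0.00196). Decorin (Dcn), a small proteoglycan that binds collagen fibrils, had the highest CPM of the list and stood at 9.69, 10.2 and 7.93 CPM against 17.9 CPM in the control (-0.95, SE 0.18, adjusted p = 0.00912). The muscle-type filament gene Des fell by 2.33 (adjusted p = 0.00209), and Colec11 and Rgs5 fell by 2.13 and 1.5 (adjusted p = 0.00153 and 0.0108). Acta2 and Tagln, contractile genes of activated stellate cells and smooth muscle, were above the control in all 3 treated libraries without passing. Acta2 was at 2.93, 2.29 and 1.47 CPM against 0.979 CPM (log2 fold change 1.18, adjusted p = 0.087), and Tagln at 0.617, 0.521 and 0.768 CPM against 0.267 CPM (1.25, adjusted p = 0.102). Reln stood at 5.99, 7.0 and 4.57 CPM against 5.39 CPM and overlapped between the groups. Des, Colec11, Acta2, Tagln and Lum were picked after their values were seen. Lumican (Lum), which also binds collagen fibrils, was the member called higher, at 0.756, 0.819 and 0.495 CPM against 0.178 CPM, on 8 counts in the control (adjusted p = 0.0444). Relative to decorin, the per-kilobase level of Col1a1 was 0.666, 0.545 and 0.689 in the treated libraries and 0.0355 in the control. That of Col3a1 was 1.89, 1.47 and 1.55 against 0.130. Decorin itself fell, which raises these ratios, and they depend on the marker chosen. No ratio was taken to Lum, Acta2 or Tagln, which were above the control in all 3 treated libraries. The shift in ratio was not tested. In sorted bulk cells, fewer cells of a type and less RNA per cell cannot be told apart.

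**Figure D4:**
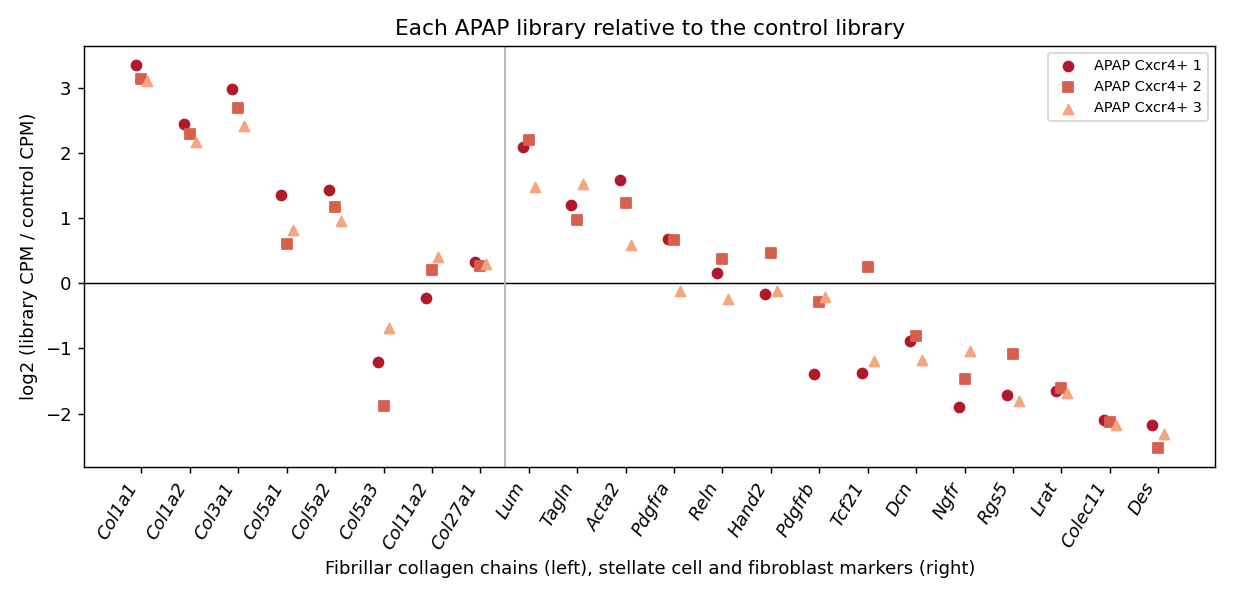
Log2 ratio of each treated library's CPM to the control's, for the 8 tested fibrillar collagen chains on the left and for stellate cell and fibroblast markers, ordered by fold change, on the right of the vertical line. Among the chains, Col1a1, Col1a2, Col3a1, Col5a1, Col5a2 and Col27a1 lie above 0 in all 3 libraries, Col5a3 lies below and Col11a2 on both sides. Among the markers, Lum, Tagln and Acta2 lie above 0 in all 3 libraries, and Pdgfrb, Dcn, Ngfr, Rgs5, Lrat, Colec11 and Des lie below.

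Markers of other cell types were present too. The 12 endothelial markers summed to 1000.1 to 1411 CPM after APAP and to 1963 CPM in the control, none at 0. Of these, 2 were called higher and 4 lower, beside 25.4% and 18.9% of all genes tested. Most of the sum came from Cdh5 and Stab2. Cdh5 was at 474, 692 and 748 CPM against 1268 CPM and was called lower. Stab2 was at 264, 325 and 365 CPM against 407 CPM and was not called. Kdr (41.1, 40.1 and 46.7 against 32.2 CPM) and Ptprb (68.5, 62.0 and 66.8 against 44.9 CPM) were called higher. The sum therefore need not follow the rest of the list. The 4 mesothelial markers summed to 1.69 to 2.54 CPM and to 0.534 CPM in the control, where Msln and Wt1 were at 0. B cell markers summed to 278 to 425 CPM and 55.8 CPM, T and NK cell markers to 58.8 to 74.1 CPM and 35.6 CPM, plasmacytoid dendritic cell markers to 159 to 184 CPM and 92.2 CPM, and neutrophil markers to 32.1 to 94.1 CPM and 5.47 CPM, with Cr2, Siglech and Ly6g at 0 in the control. Most of the plasmacytoid sum was Tcf4, at 109, 128 and 128 CPM against 88.7 CPM in the control. Siglech was at 18.0, 13.2 and 23.5 CPM against 0. Spib was at 23.2, 30.2 and 24.8 CPM against 2.05 CPM, and Ccr9 at 8.28, 6.79 and 7.97 CPM against 1.51 CPM. The part of any of these cell types in the collagen results was not tested.

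Newly made chains are hydroxylated, folded with the help of chaperones, trimmed outside the cell and then cross-linked. Of 34 listed genes for these steps 31 were tested, 6 were called higher and 9 lower (median log2 fold change 0.14), beside 25.4% and 18.9% of all genes tested. Among those called higher, Lox, Loxl1 and Plod2 were at 0 in the control and could not have been called lower. The 4 smallest p-values belonged to Pcolce2, an enhancer of procollagen trimming, P3h4, a partner of prolyl and lysyl hydroxylases, Adamts14, which cuts the amino-terminal propeptide, and P4ha2, a prolyl hydroxylase subunit. Adamts14 rose from 0.0890 CPM, or 4 counts, in the control to 2.01, 2.36 and 1.64 CPM (log2 fold change 4.46, SE 0.52, adjusted p = 0.00236). P3h4 fell from 5.32 to 1.15, 1.30 and 1.37 CPM (-2.06, SE 0.23, adjusted p = 0.00212), and P4ha2 from 18.6 to 9.0, 9.48 and 9.98 CPM (-0.97, SE 0.14, adjusted p = 0.00388). Pcolce2 fell from 278 to 68.5, 85.1 and 91.8 CPM (-1.77, SE 0.15, adjusted p = 0.00127). Serpinh1, the collagen chaperone HSP47, picked after its value was seen, stood at 5.01, 4.34 and 4.42 CPM against 4.94 CPM and did not pass (-0.11, adjusted p = 0.684). Without the second treated library 5 genes of the list were called lower.

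Of the lysyl oxidase genes, also picked after their values were seen, 3 were called higher, beside 25.4% of all genes tested. Lysyl oxidase (Lox), which joins neighbouring collagen molecules, had 41, 28 and 58 counts in the treated libraries and 0 in the control (adjusted p = 0.00604), and Loxl1 had 25, 20 and 42 counts and 0 (adjusted p = 0.00983). Both passed the count filter only through the treated libraries, so they could be called higher but not lower. Loxl2 rose from 0.579 CPM to 2.33, 1.64 and 2.99 CPM (log2 fold change 2.0, SE 0.47, adjusted p = 0.0185). Loxl3 and Loxl4 were not called (adjusted p = 0.0534 and 0.841).

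Of 13 listed collagen receptors 10 were tested, 4 were called higher and 2 lower, beside the same 25.4% and 18.9% of all genes. The receptor kinase Ddr1 rose from 0.490 CPM to 6.53, 6.31 and 10.2 CPM (log2 fold change 3.97, SE 0.45, adjusted p = 0.00224), and all treated libraries were far above the control. Itga2, the alpha subunit of an integrin that binds type I collagen, had 127, 112 and 47 counts after APAP and 0 in the control (adjusted p = 0.00923, and 0.0673 with limma-voom). It passed the count filter only through the treated libraries and could not have been called lower. Itga1, of the integrin that prefers type IV, was at 13.7, 12.5 and 11.9 CPM against 7.03 CPM (0.85, adjusted p = 0.0100, and 0.30 after the length and GC correction). Lair1, an inhibitory receptor for collagen on leukocytes, fell from 260 to 153, 189 and 189 CPM (-0.55, adjusted p = 0.0247), a call lost without the second treated library (adjusted p = 0.0634), where 0 receptors were called lower.

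Of 10 listed genes for collagen breakdown 9 were tested, 3 were called higher and 1 lower, beside the same 25.4% and 18.9%. Numbers this small say nothing particular about either list. Mmp14, a membrane collagenase, was at 39.0, 50.5 and 37.8 CPM against 16.6 CPM (log2 fold change 1.36, SE 0.20, adjusted p = 0.00456). The collagenase Mmp13 was at 11.5, 16.5 and 21.9 CPM against 5.63 CPM (1.57, SE 0.38, adjusted p = 0.0215), with a call lost without the second treated library (adjusted p = 0.0597) and with limma-voom (0.0505). Mmp8, a neutrophil collagenase that is also among the neutrophil markers, had 6 counts in the control and was called higher (adjusted p = 0.00326, and 0.0925 with limma-voom). The lysosomal protease Ctsl fell from 444 to 329, 305 and 316 CPM (-0.49, SE 0.09, adjusted p = 0.0100), and this call was lost without the second treated library (adjusted p = 0.0686).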

How the data were processed

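Read counts per Ensembl gene, deposited as whole numbers and not normalized, were used for 3 libraries of Cxcr4+ macrophages after acetaminophen and 1 library of control macrophages. The tools named are HISAT2 and Subread, with build mm39, per the submitters' processing notes. Tool versions and roles, gene annotation, strandedness and the counting of shared reads: not given in the sources used here. The columns of the acetaminophen group carry no number and were numbered in table order. The members, lists and alternatives were chosen with earlier results of these data known. All genes were tested together with the quasi-likelihood F test of edgeR 4.0.16 in R 4.3.3, with TMM factors (trimmed mean of M-values) and the filterByExpr filter (minimum count 10, minimum total 15). Benjamini-Hochberg adjustment ran over all genes tested, with calls at 0.05. The spread came from the 3 treated libraries alone, with 2 residual degrees of freedom. The same test was run on simulated counts for 18715 genes, of which 18515 had no difference between groups, and 2 of these were called. It picked up 32 of the 67 genes given a 2-fold difference, all 67 given 4-fold and all 66 given 8-fold. In the data themselves 44.3% of genes were called. A control spread cannot be measured from 1 library, so the simulated one was an assumption. These rates therefore do not give the error rate of the calls made here. The SE is the log2 fold change divided by the square root of F. Transcript length and GC content are those of the longest GENCODE M21 transcript of each gene, matched by identifier. The alternatives were DESeq2 1.42.0 size factors and Wald test, upper-quartile factors, 2 other count filters, each treated library left out, limma-voom (limma 3.58.1), glmTreat against a log2 fold change of 1, and an offset for the centred trend over length and GC content. Halving the counts was added after the data were seen. Every chain tested is named, with the value in each library for those reaching 50 counts, and so are chains not tested with 10 or more counts and the 4 smallest p-values of each related list.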

Additional observations from a re-analysis of the deposited data

How the results depend on the processing

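No paired analysis was possible because there is 1 control library and its label carries no replicate number. The number of chains called higher was 11, and 5 of the 12 chains left when at least 5 CPM in 1 library was required; against a 2-fold change (glmTreat) 4 were called higher and 0 lower. Leaving out each treated library gave 8 to 10 chains higher and 1 lower. The length and GC correction and limma-voom gave 8 higher each and halved counts 9. The correction reversed Col11a2 (-0.0367) and Col27a1 (-0.00761), neither called, and the cause was not tested. For synthesis genes, 3 were called higher under the 5 CPM filter, and 3 higher and 2 lower with glmTreat; with each library left out, 6 to 7 were higher and 5 to 10 lower. For receptors, 2 were higher under the 5 CPM filter, glmTreat and limma-voom. Lower receptors numbered 0 with glmTreat, 1 with the 5 CPM filter, the DESeq2 Wald test, limma-voom, halved counts or no count filter, and 0 to 2 with each library left out. For breakdown genes, 1 was higher with glmTreat and with limma-voom and 0 lower with glmTreat; with each library left out, 2 to 4 were higher and 0 to 1 lower. The 5 CPM filter tests fewer genes by construction; the cause of the other shifts was not tested. Halved counts were chosen after seeing the data. Across 18644 genes log2 fold change and transcript length had a Spearman rho of 0.253, a description over genes, which are not replicates. Depth limits chains under 50 counts, and all folds rest on 1 control library.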
